A study of Arabidopsis thaliana with 48 samples.

Results

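The mRNA level of 258 Arabidopsis nuclear genes was lower 2 min after a bright light was switched on over a single leaf, in that leaf and in a distant unlit leaf, in wild-type plants and in the rbohD mutant. These early-lowered genes were chosen by a rule that used the measured values. In each of 4 expression tables a gene's change is the mean of log2(normalized count + 1) over the 3 libraries at a time point minus the same mean over the 3 libraries at 0 min, and a gene entered when its change at 2 min was -0.8 or lower in all 4 tables and its mean normalized count was at least 50 over the 12 libraries of each table. Of 32833 genes in the tables, 13766 met the minimum mean in all 4 tables and 258 of those met the rule. A normalized count is the number of reads on a gene divided by a scaling factor of its library.

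The plants were Col wild type (WT) and an rbohD knockout in the same ecotype, a line without functional RBOHD, the plasma membrane NADPH oxidase that produces extracellular superoxide. They were 4 to 5 weeks old and grown at 23°C in short days (8 h light, 16 h dark) at 50 µmol m-2 s-1, and 1 leaf (the local leaf) was lit at 2000 µmol m-2 s-1 for 0, 2, 4 or 8 min and harvested together with an unlit leaf of the same plants (the systemic leaf). Each group of genotype, leaf and time had 3 libraries, 48 in all, and each library came from a pool of many plants, so spread between plants is averaged out. The labels place WT and rbohD in different experiments with tables normalized separately, so genotype and experiment cannot be told apart, and the knockout is a single mutant line.

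Read totals ran from 13412657 to 28675623 per library. RBOHD itself was between 1096 and 2153 normalized counts in the 24 WT libraries and between 337 and 697 in the 24 rbohD libraries, and the ranges did not overlap on the separate scales of the tables. All 5 photosynthetic leaf markers were above 10 normalized counts in every library, while the root markers CASP1, COBL9 and RHD6 and the flower and seed markers AP1 and SESA1 stayed under 10 normalized counts throughout and the other root and flower markers PHT1;4, PYK10, AG and CRA1 reached at most 28.3, 303, 37.7 and 30.1. Summed over their 5 genes, the photosynthetic markers were lower in local leaves at 2 min (WT local 917518 to 986075, rbohD local 713290.02 to 736602) than at 0 min (1281395 to 1305904 and 884623 to 904195). The sum of the 4 markers of bundle sheath and xylem parenchyma was higher (4292 to 4664 against 3126 to 3248 in WT local, 1713 to 1811 against 948 to 1015 in rbohD systemic). SWEET11 weighs most in that sum, with a median of 2249 normalized counts against 94.1, 120 and 30.8 for SULTR2;2, HKT1 and SWEET12. The part of these markers in the 2 min levels was not tested, and in bulk leaf RNA fewer cells of a type and less RNA per cell cannot be told apart.

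From annotation, read after the values were seen, 103 of the 258 genes were given a role, among them 20 in ribosome assembly in the nucleolus, 14 in plastid and 11 in mitochondrial gene expression, and the sizes of these groups were not tested. In the nucleolus, precursor ribosomal RNA is cut, methylated and folded by proteins such as fibrillarin, nucleolin and NOP56 before ribosomal subunits leave the nucleus. Chloroplasts and mitochondria keep small genomes of their own, but the polymerases, RNA-binding proteins and chaperonins that read those genomes and fold their products are encoded in the nucleus, and it is the nuclear mRNAs that are described here.

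The median change over the 258 genes at 2 min was -1.40, -1.29, -1.51 and -1.28 for WT local, WT systemic, rbohD local and rbohD systemic leaves on the log2 scale, and the median gene then stood at 37.6%, 40.8%, 35.0% and 41.3% of its 0 min level. These values follow from the rule and are a description without a test. Each table taken alone put 8.38%, 6.66%, 10.3% and 7.43% of the genes over its minimum mean at -0.8 or lower, in the same order. Over all 13766 genes the medians at 2 min were between -0.01 and 0.03. The 3 libraries of a group lay close together: their medians over the 258 genes at 2 min were between -1.41 and -1.37 (WT local), -1.29 and -1.27 (WT systemic), -1.49 and -1.49 (rbohD local) and -1.25 and -1.23 (rbohD systemic). Normalized totals of the WT local libraries were lower at 2 min than at any other time, and when every library was rescaled to one total the median over all 13766 genes moved up by 0.17 in WT local and 0.12 in WT systemic leaves, with the 258 genes then at -1.23 and -1.17.

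By 4 min the 2 genotypes differed in where these genes stood. In WT the median change from 0 min was 0.11 in local and 0.10 in systemic leaves, with 182 and 184 of the 258 genes above their 0 min mean. In rbohD it was -0.43 and -0.27, with 6 and 10 genes above. Of all 13766 genes over the minimum mean, 53.8% and 48.8% were above their 0 min mean in the local and systemic leaves of WT, and 50.0% and 50.8% in those of rbohD. At 8 min the order was turned: the medians were -0.53 and -0.49 in the local and systemic leaves of WT, and -0.22 and -0.08 in those of rbohD. WT thus showed a low level, a return and a partial second low, and rbohD a low level and a gradual return. The 4 and 8 min changes share the 0 min libraries with the rule and are given as values. The drop from 4 to 8 min in WT and the rise in rbohD, whose libraries entered the rule only through the minimum mean, are tested further on.

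**Figure D1:**
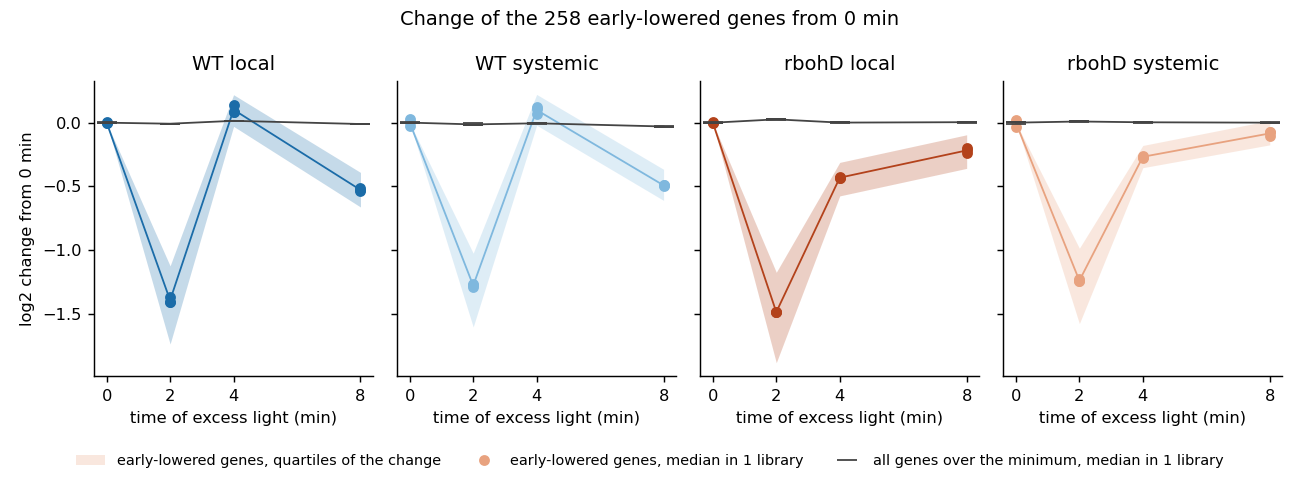
Change from 0 min (log2 scale, vertical axis) against minutes of excess light (horizontal axis) in the 4 tables. Each dot is the median over the 258 early-lowered genes in 1 library, each dash the median over all 13766 genes over the minimum mean, lines join group means of these medians and shaded bands span the quartiles of the genes' changes. The dots of WT return to 0 or above at 4 min and lie between -0.54 and -0.49 at 8 min, whereas those of rbohD approach 0 steadily.

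The lowest mean changes over the 4 tables belonged to AT1G14250, a nucleoside phosphatase of the GDA1/CD39 family, then to AT3G56330, annotated as a tRNA dimethylguanosine methyltransferase, AT1G70820, a putative phosphoglucomutase, and PDE340 (AT5G08610), a nucleoside triphosphatase-like gene named for its pigment-defective mutants. In WT local leaves AT1G14250 had 389, 362 and 329.9 normalized counts at 0 min, 40.8, 54.2 and 46.0 at 2 min, 329, 292 and 294 at 4 min and 149, 185 and 169.9 at 8 min. In rbohD systemic leaves it had 466, 485 and 493, 103, 88.9 and 85.8, 449, 449 and 491 and 532, 567 and 503 at the same times. The 2 min libraries were below all others in both tables, and the 8 min libraries were below those at 0 min in the first table and not in the second. AT1G70820 had the lowest single change of all members, -3.96 in rbohD systemic leaves, where it went from 2143, 2312 and 2301 at 0 min to 132, 139 and 163 at 2 min and 1657, 1641 and 1641 at 4 min. The same gene had 466, 481 and 524, 141, 147 and 128 and 824, 799.9 and 832 in WT systemic leaves, so its 4 min libraries were above those at 0 min in WT and below them in rbohD. PDE340 had changes of -1.99, -1.83, -3.60 and -3.40 at 2 min in WT local, WT systemic, rbohD local and rbohD systemic leaves, and AT3G56330 of -2.26, -1.86, -3.76 and -3.51. The change of both genes was thus lower in rbohD than in WT by over 1 log2 unit in each leaf.

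The 8 next lowest were AT1G78930, a gene of the mitochondrial transcription termination factor family, FLN2, SCA3 and RFC3, which belong to plastid gene expression, OFP16, an ovate family transcriptional repressor, AT5G39790, a starch-targeting protein, AT3G17830, a DnaJ chaperone, and ATCTH, a CCCH zinc finger protein. SCA3, the plastid RNA polymerase of the phage type, had 1399.7, 1353 and 1383 normalized counts at 0 min and 202, 224 and 229 at 2 min in the local leaf of WT, and 1416, 1275 and 1490.02 and 284, 301 and 304 in the systemic leaf. In rbohD it had 2013, 2039.9 and 1947 and 288, 283 and 265 in local leaves and 2028, 2024 and 2081 and 395, 350.4 and 393 in systemic leaves. The 0 and 2 min libraries of SCA3 did not overlap in any table. Levels of single genes among the 258 are compared within a table only, since the WT and rbohD tables were normalized separately. Group medians of levels across genotypes, given further on, carry the same limit. The changes of the others at 2 min ran from -3.43 (FLN2, rbohD local) to -1.59 (AT3G17830, WT systemic). SCA3 overlaps a neighbouring gene on its own strand in the annotation, and how reads in such overlaps were assigned is not given in the sources used here.

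Promoters of 3 genes among those with the lowest mean changes and of 2 nucleolar members are printed because genes that share a course over time are often compared by their upstream motifs. Each run is the 250 bases before the annotated gene start, 5′ to 3′ on the strand of the gene, read from the TAIR10.1 assembly with the RefSeq annotation, and capitals mark matches on either strand to the G-box (CACGTG), evening element (AAATATCT), telo box (AAACCCTAA), site II (TGGGCC), core promoter element (TATAAA), I-box core (GGATAA), W-box (TTGACC), an ABRE-like motif (ACGTGT), a bHLH core (CATATG) and a GA repeat (GAGAGAGA), which can overlap. The first 3 stand at chr1:4868096-4868345, plus strand (AT1G14250), chr3:20889985-20890234, plus strand (AT3G56330) and chr5:2789993-2790242, plus strand (PDE340). The nucleolar pair, picked after their values were seen, stands at chr1:20986953-20987202, minus strand (NOP56) and chr5:9540611-9540860, plus strand (AT5G27120, annotated as NOP56-like).
AT1G14250: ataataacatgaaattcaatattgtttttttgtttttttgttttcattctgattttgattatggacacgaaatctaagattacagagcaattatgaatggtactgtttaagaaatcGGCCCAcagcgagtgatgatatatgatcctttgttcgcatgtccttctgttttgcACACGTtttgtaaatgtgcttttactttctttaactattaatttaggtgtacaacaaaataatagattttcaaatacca
AT3G56330: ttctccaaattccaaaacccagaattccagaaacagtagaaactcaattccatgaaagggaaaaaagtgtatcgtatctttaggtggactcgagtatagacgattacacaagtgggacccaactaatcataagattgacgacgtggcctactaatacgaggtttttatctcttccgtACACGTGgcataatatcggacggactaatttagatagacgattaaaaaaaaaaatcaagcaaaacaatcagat
PDE340: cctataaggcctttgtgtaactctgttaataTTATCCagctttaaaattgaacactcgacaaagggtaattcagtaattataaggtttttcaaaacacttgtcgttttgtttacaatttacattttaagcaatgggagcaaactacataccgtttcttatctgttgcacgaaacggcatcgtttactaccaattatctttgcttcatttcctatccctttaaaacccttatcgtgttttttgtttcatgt
NOP56: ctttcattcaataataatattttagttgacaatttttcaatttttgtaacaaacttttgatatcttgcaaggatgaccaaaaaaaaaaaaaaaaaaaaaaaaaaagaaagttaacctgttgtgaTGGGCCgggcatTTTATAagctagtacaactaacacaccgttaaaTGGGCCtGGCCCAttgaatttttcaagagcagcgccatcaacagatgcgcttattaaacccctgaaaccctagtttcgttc
AT5G27120: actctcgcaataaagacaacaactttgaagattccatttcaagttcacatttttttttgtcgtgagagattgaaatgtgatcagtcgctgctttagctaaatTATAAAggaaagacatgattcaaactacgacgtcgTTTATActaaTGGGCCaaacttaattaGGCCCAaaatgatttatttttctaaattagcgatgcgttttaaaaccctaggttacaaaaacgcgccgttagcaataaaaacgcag
No motif occurred in all 5. The promoter of PWP2, another nucleolar member picked after its values were seen and not printed, held TATAAA and no TGGGCC. Among the promoters of all 258 genes, 60 (23.3%) held TGGGCC, the site II element known from genes of ribosomal and mitochondrial proteins, against 18.8% of the 13741 promoters over the minimum mean. In the 20 nucleolar members described next the count was 9, and in the 14 members of plastid gene expression it was 2. AAACCCTAA, the telo box, stood in 12 promoters (4.65% against 2.16%), and CACGTG, the G-box bound by bHLH and bZIP factors, in 11 (4.26% against 7.66%). AAATATCT, the evening element, stood in 6.2% against 4.67%, TATAAA in 47.7% against 45.2%, GGATAA in 14.7% against 13.7%, and TTGACC, the W-box, in 9.69% against 11.8%. The ABRE-like motif, the bHLH core and the GA repeat stood in 8.91%, 6.98% and 3.49% against 10.9%, 7.04% and 4.4%. These shares are descriptions, and a match is not a bound site.

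Genes of ribosome assembly in the nucleolus made up 20 members. They include FIB2, the fibrillarin that methylates ribosomal RNA, NUC-L1, a nucleolin of rDNA chromatin, NOP56 and its relative AT5G27120, core proteins of box C/D particles, NOP10 and AT3G03920 (Gar1), proteins of H/ACA particles, PWP2, EMB2777 and AT3G11964 (RRP5), factors of the small subunit processome, OLI2, RBL and EDA25 on the large subunit side, and AT3G07750 and RRP41L, exoribonucleases. NUC-L1, the one with the highest counts, had 6102, 6270.3 and 6034 normalized counts at 0 min, 1688, 1868 and 1867 at 2 min, 7139.6, 7054 and 6886 at 4 min and 4596, 4481 and 4299 at 8 min in WT local leaves. In rbohD local leaves the values were 5779.6, 5923 and 5805, 2836, 2856 and 2804, 4686, 4725 and 4699 and 5797, 5749 and 5747. The 2 min libraries were the lowest in both, and at 8 min the WT libraries were below their 0 and 4 min libraries while the rbohD libraries overlapped those at 0 min. The median change of the 20 genes was -1.54, -1.56, -1.19 and -0.98 at 2 min in WT local, WT systemic, rbohD local and rbohD systemic leaves, 0.04, -0.01, -0.36 and -0.20 at 4 min and -0.51, -0.51, -0.02 and 0.07 at 8 min. FIB2 had the lowest change of the group in WT, -2.50 in local and -2.27 in systemic leaves, against -1.93 and -1.32 in rbohD. Its counts in WT systemic leaves were 640.1, 707 and 756 at 0 min and 130.5, 158 and 145 at 2 min, and in rbohD systemic leaves 688, 648 and 718 and 271, 291 and 257. FIB2 shares bases with an annotated gene on its own strand and NUC-L1 and NOP56 with genes on the other strand, so reads in those stretches could belong to either.

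Genes of plastid gene expression showed the other order between genotypes. The 14 members include SCA3, FLN2, a fructokinase-like protein of the plastid transcription complex, PDE312 and MRL7-L, also tied to that complex, FSD3, an iron superoxide dismutase of plastid nucleoids, WHY3, a single-stranded DNA-binding protein, CAF1, WTF1, ECB2 and OTP84, which act in splicing and editing of plastid RNA, and RFC3, related to ribosomal protein S6. Their median change at 2 min was -1.43, -1.20, -2.25 and -2.10 in the 4 tables in the order given above. FLN2 had 417, 433 and 461 normalized counts at 0 min and 89.7, 87.0 and 94.0 at 2 min in WT local leaves, and 1074, 1172 and 1131 and 108, 103 and 98.8 in rbohD local leaves. PDE312 had 457, 506 and 475 and 189, 203 and 191 in WT systemic leaves, and 1435, 1485 and 1499 and 155, 149 and 179 in rbohD systemic leaves. The 0 and 2 min libraries of both genes did not overlap in either genotype. MRL7-L had changes of -0.96 and -0.84 in the local and systemic leaves of WT and of -2.37 and -2.18 in those of rbohD. At 4 min the group's medians were 0.15, 0.12, -0.59 and -0.39, so it had passed its 0 min level in WT and had not reached it in rbohD. Between genotypes, the 2 min change was lower in rbohD for 12 of these 14 genes in local and 13 in systemic leaves, and lower in WT for 15 and 18 of the 20 nucleolar genes. Over all 258 genes it was lower in rbohD for 143 in local and 124 in systemic leaves. Levels also differed between genotypes, on the separate scales of the tables. For the plastid genes the median log2 ratio of rbohD to WT at 0 min was 0.76 in local and 0.85 in systemic leaves. At 2 min it was 0.09 and 0.03. For the nucleolar genes it was -0.01 and -0.03 at 0 min, and 0.34 and 0.54 at 2 min. The part of the 0 min levels in the 2 min changes was not tested. The groups were put together from annotation after the values were seen and the 2 min change chose the genes, so these counts and ratios carry no test.

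**Figure D2:**
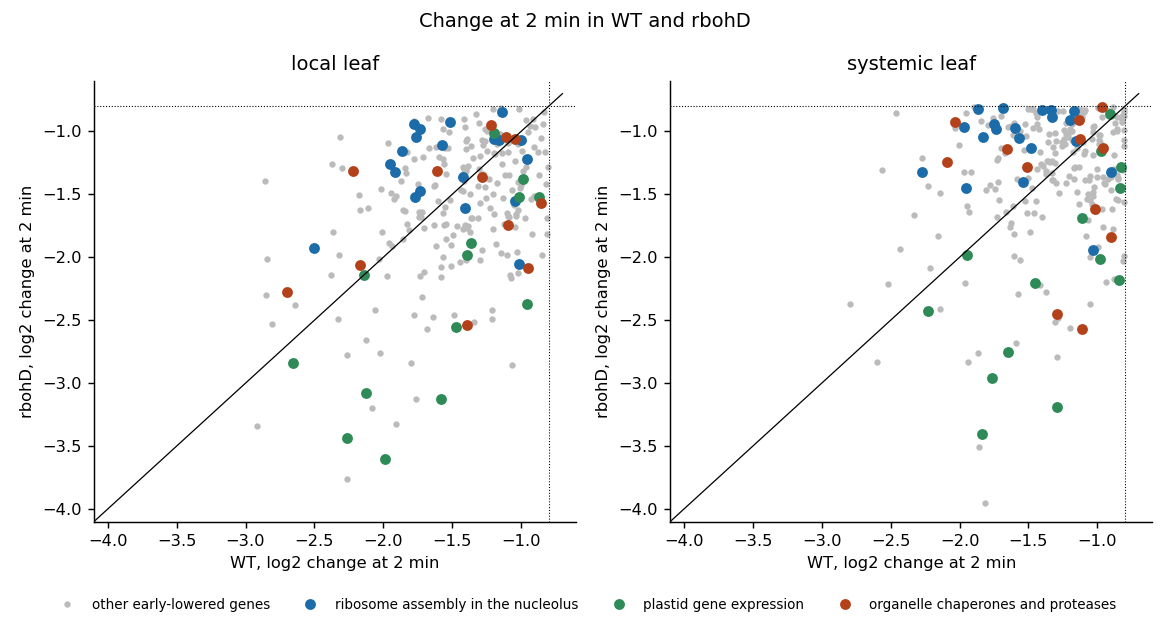
Change at 2 min in rbohD (log2 scale, vertical axis) against that in WT (horizontal axis) for the 258 early-lowered genes, local leaves left and systemic leaves right. Each dot is a gene, coloured by annotated group, the diagonal marks equal change and the dotted lines the limit of -0.8. Nucleolar genes lie mostly above the diagonal, with the lower change in WT, and genes of plastid gene expression below it.

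Mitochondrial gene expression contributed 11 members, among them POLGAMMA1, an organelle DNA polymerase, AT5G15700, an RNA polymerase, ATWHY2, the mitochondrial Whirly protein, MORF1, an RNA editing factor, PMH1, an RNA helicase, BIR6 and PPR596, pentatricopeptide repeat proteins, and AT5G46920, an intron maturase. Their median change at 2 min was -1.40, -1.37, -1.57 and -1.35 in the 4 tables. AT1G30680, a toprim-domain protein, and ATWHY2 had the lower 2 min change in rbohD. AT1G30680 had changes of -0.85, -0.94, -1.98 and -2.20 and ATWHY2 of -0.81, -0.81, -1.81 and -1.99 in WT local, WT systemic, rbohD local and rbohD systemic leaves. POLGAMMA1 was more even, with -1.26, -1.21, -1.44 and -1.35. Pentatricopeptide repeat proteins, which bind organelle RNA, supplied 8 members on the list written for that family. The 4 of them with the highest counts had 2 min changes of -1.72, -1.30, -1.64 and -1.41 (AT5G46580), -1.02, -0.85, -1.40 and -1.37 (AT4G35850), -1.84, -1.63, -1.33 and -0.96 (PPR596) and -2.38, -2.23, -2.14 and -1.44 (AT1G08610).

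Chaperones and proteases of the organelles held 12 members, 4 of them among the 8 with the highest mean normalized count of all 258 (not corrected for transcript length). CPN60A and Cpn60beta2 are subunits of the chloroplast chaperonin, CPN20 its cofactor and CR88 the chloroplast HSP90. HSP60-2, HSP60-3A, mtHsc70-1 and the GrpE-type co-chaperone AR192 work in mitochondria, where PHB3 and PHB4 are prohibitins and LON1 a protease. Cpn60beta2 had 7154, 7175 and 7337 normalized counts at 0 min, 1051, 1159 and 1124 at 2 min, 7284, 6826 and 6939 at 4 min and 9319.9, 9829.9 and 9073 at 8 min in WT local leaves. The systemic leaf had 9186, 8047 and 8226, 2059, 1975 and 1943, 7696, 7122 and 7896 and 5052, 4874 and 4963. At 8 min it was thus above its 0 min libraries in the lit leaf and below them in the unlit leaf of the same plants. CPN60A had 2 min changes of -2.17, -1.51, -2.06 and -1.29, CPN20 of -1.29, -0.97, -1.36 and -0.81 and CR88 of -2.22, -2.03, -1.32 and -0.92. LON1 and HSP60-2 had the lower change in rbohD, at -0.95, -1.29, -2.09 and -2.45 and -0.86, -0.90, -1.57 and -1.84, and CR88 had it in WT. Cpn60beta2, AR192 and CPN20 overlap genes on the other strand.

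Cell wall and cuticle genes made up 17 members. PRP4, a proline-rich wall protein and the gene with the highest mean count of the 258, had 2 min changes of -0.93, -0.82, -1.54 and -0.93, and ELP, an extensin-like protein, of -1.57, -1.15, -2.00 and -1.48. XTH31, a xyloglucan-modifying enzyme, had 6952, 6643 and 7146 normalized counts at 0 min and 956, 958 and 947 at 2 min in WT local leaves, and 4962, 4659 and 4546 and 1839, 1734 and 1817 in rbohD local leaves. Its changes were -2.86, -2.46, -1.39 and -0.85, lower in WT in both leaves. EXPB3, an expansin that loosens walls, had changes of -1.72, -1.44, -2.31 and -0.88, CER1, an enzyme of alkane synthesis for the cuticular wax, of -1.74, -1.52, -1.68 and -1.04, and GH9B7, a glycosyl hydrolase, of -1.12, -0.81, -1.35 and -0.85. AT1G67750, a pectate lyase family gene, and AT2G04570, a GDSL-type lipase gene, were among the 4 members with the lowest mean change at 8 min, with -0.99, -0.94, -1.11 and -0.28 and -1.27, -0.68, -1.17 and -0.27 at that time in the 4 tables. CYP96A12, a cytochrome P450 gene of this group, had 2 min changes of -1.41, -0.93, -1.36 and -0.83. CYP76C1, a cytochrome P450 gene that was not placed in this group, had changes of -1.53, -1.48, -1.13 and -0.82. XYP1, an arabinogalactan protein of xylem differentiation with lipid-transfer homology, had changes of -1.98, -1.32, -2.15 and -1.38.

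Oxylipin genes were represented by LOX2, the chloroplast lipoxygenase of jasmonate synthesis, AOC2, an allene oxide cyclase, OPR2, a reductase related to the jasmonate enzyme, and KAT5, a thiolase. LOX2 had 6937, 5723 and 5767 normalized counts at 0 min, 1742, 1493 and 1506 at 2 min and 6448, 5889.8 and 6827 at 4 min in WT systemic leaves. In rbohD systemic leaves it had 6859.7, 7729 and 7354, 4052, 3867 and 4236 and 7141, 7107 and 7101, so its 2 min libraries were the lowest of these times in both genotypes. AOC2 had 2 min changes of -2.01, -2.43, -1.80 and -1.93, KAT5 of -1.83, -2.03, -1.17 and -0.97 and OPR2 of -1.28, -0.98, -1.38 and -1.03. At 4 min in WT local leaves LOX2, AOC2 and KAT5 were above their 0 min level, by 0.78, 0.76 and 0.64.

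Starch and sugar genes included AMY3, a chloroplast alpha-amylase, LSF2, a phosphatase that acts on starch, SWEET17, a vacuolar fructose transporter, and CINV2, an invertase of the cytosol. AMY3 had 1971, 1783 and 1954 normalized counts at 0 min, 532, 553 and 489.8 at 2 min and 2741, 2657 and 2602 at 4 min in WT local leaves, and its change at 2 min was -1.86, -1.73, -1.86 and -1.68 in the 4 tables. LSF2 had changes of -1.23, -1.04, -1.38 and -1.06 and SWEET17 of -1.25, -1.24, -1.15 and -1.06. Among the 8 genes of highest mean count that fall outside these groups, AT1G73600, a methyltransferase, had changes of -1.72, -1.76, -1.20 and -0.89 and AT1G13930, annotated as oleosin-B3-like, of -1.93, -1.81, -1.54 and -1.46.

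Amino acid and nucleotide synthesis held 7 members, among them OMR1, the threonine deaminase of isoleucine synthesis, at -1.56, -1.18, -1.26 and -0.94 at 2 min, BCAT3, a branched-chain aminotransferase, at -0.95, -0.81, -1.01 and -0.83, and dNK, a deoxynucleoside kinase, at -1.71, -1.72, -1.77 and -1.40. All 7 fell from 4 to 8 min in both WT leaves in the test given further on, as did 246 and 241 of all 258 genes in WT local and systemic leaves, where 19.9% and 18.5% of all genes tested fell.

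Among regulators were PIF4 and PIL5, bHLH factors degraded after phytochrome activation, TCP14, TCL1 and TCL2, single-repeat MYB proteins that hold back trichomes, AT2G47890, a B-box protein, AT5G61590, an ERF, ERL2, a receptor kinase of stomatal patterning, and the E3 ligase RMA1. PIF4 had 2537, 2312 and 2349 normalized counts at 0 min and 1001, 1100.1 and 1145 at 2 min in WT systemic leaves, and 2621, 2566 and 2684 and 1226, 1102 and 1262 in rbohD systemic leaves. Its change was nearly equal in the 4 tables, -1.26, -1.15, -1.07 and -1.13, and so was that of PIL5, -1.02, -0.83, -0.82 and -0.88. TCL1 had changes of -2.36, -2.33, -1.80 and -1.66 and TCL2, 2841 bases from it, of -1.23, -1.0, -1.61 and -1.30. AT5G61590 had changes of -1.73, -1.96, -2.15 and -2.21, TCP14 of -1.26, -0.99, -0.98 and -1.10, AT2G47890 of -1.47, -1.47, -1.75 and -1.45 and RMA1 of -0.98, -1.06, -1.32 and -1.38. AT1G23390, a Kelch-repeat F-box gene, differed more, with -2.31, -2.56, -1.05 and -1.31.

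Near the limit the choice of members is arbitrary. The 3 members whose highest change was nearest to -0.8 were FKBP53 (-0.803 in rbohD systemic leaves), ERL2 (-0.804, same leaves) and VIM3 (-0.804 in WT systemic leaves). The 3 genes just outside were AT4G39470 (highest change -0.7998), AT1G30240 (-0.798) and EMB175 (-0.796), each past the limit in the other 3 tables.

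From 4 to 8 min, a contrast whose libraries played no part in the 2 min change, other than through the minimum mean, most early-lowered genes fell in WT and many rose in rbohD. In WT local leaves 246 of the 258 fell and 2 rose (limma, Benjamini-Hochberg adjusted p under 0.05 over all 18055 genes tested, of which 19.9% fell and 19% rose), with a median change of -0.64 against -0.01 over all genes tested. In WT systemic leaves 241 fell and none rose (background 18.5% and 21.5% of 18140 genes), median -0.58 against 0.01. In rbohD local leaves 127 rose and 13 fell (14.8% and 13.4% of 17538 genes), median 0.22 against 0.00. In rbohD systemic leaves 142 rose and 4 fell (11.8% and 11.5% of 17609 genes), median 0.21 against 0.01. Of the 258, 235 fell in both WT leaves, 101 rose in both rbohD leaves and 97 did all of this, and LOX2 alone fell in all 4 tables. The shares of all genes with the same joint calls are not given here, so these joint counts are descriptions. None rising in WT systemic leaves held with edgeR (0) and DESeq2 (0), and with an unadjusted p under 0.05 the count was 0; without the third 4 min library it was 1. The summed level of the 4 epidermis markers, with PDF1 among them at 0 in some libraries, was lower at 8 than at 4 min in WT and higher in rbohD. It was 19414 to 20451 at 4 min and 17512 to 18824 at 8 min in WT local, 20875 to 23835 and 19212 to 19590.5 in WT systemic, 12321 to 13606 and 14001 to 14694 in rbohD local and 13189.7 to 13679.7 and 14074 to 14556 in rbohD systemic leaves. At 2 min the same sum was below its 0 min range in WT and above it in rbohD (15754 to 15909 against 11769 to 12393 in local and 16867 to 17424 against 12681 to 13009 in systemic leaves). Not every marker type had the 4 to 8 min order: the guard cell sum in rbohD local leaves was 700 to 709 at 4 min and 615 to 668 at 8 min. The part of these markers in the result was not tested. Rescaling every library to one total moved the split over all genes from 3905 higher and 3354 lower to 4964 and 2390 in WT systemic leaves, and from 2587 and 2343 to 1651 and 3869 in rbohD local leaves, where 20 in place of 13 early-lowered genes then fell.

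**Figure D3:**
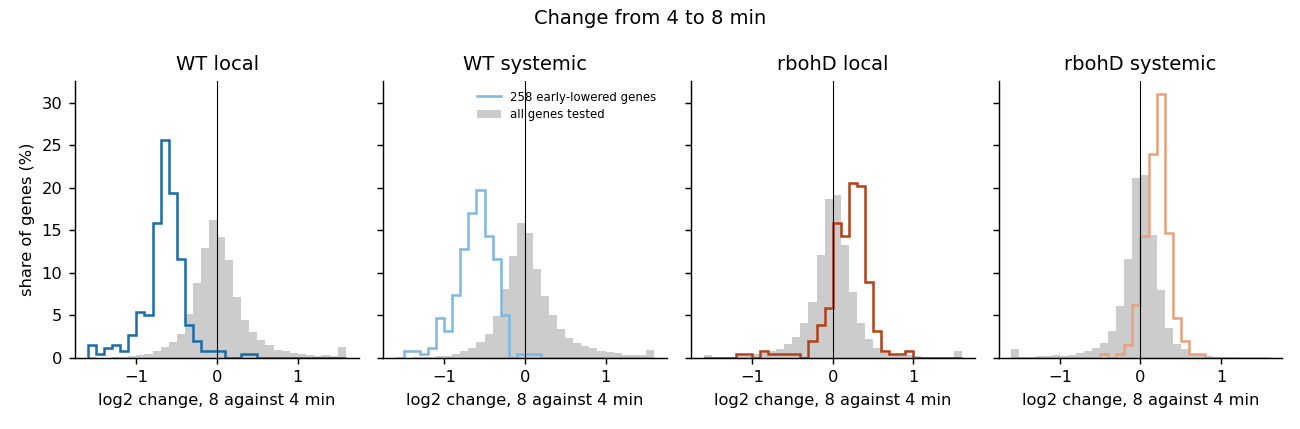
Distribution of the log2 change from 4 to 8 min (horizontal axis, bins of 0.1, values past 1.5 drawn in the end bins) as a share of genes in % (vertical axis) in the 4 tables. Filled bars are all genes tested and outlines the 258 early-lowered genes, whose outline peaks left of 0 in both WT leaves and right of 0 in both rbohD leaves.

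The falls in WT held most members of each annotated group. All 20 nucleolar genes, all 14 of plastid gene expression and all 11 of mitochondrial gene expression fell in both WT leaves. So did 235 of all 258 genes, so these group counts lie near that of the members as a whole. In rbohD, 17 of the 20 nucleolar genes rose in local and 17 in systemic leaves, and 12 and 14 of the 14 genes of plastid gene expression. Of all 258 genes 127 rose in local and 142 in systemic leaves of rbohD, and of all genes tested 14.8% and 11.8%. FIB2 had 267, 258 and 282 normalized counts at 4 min and 557, 496 and 499.7 at 8 min in rbohD local leaves, a rise of 0.94 ± 0.07 (SE, n = 3 and 3; limma adjusted p = 5.65e-12), and 549.7, 452 and 481 and 337, 313 and 331 in WT local leaves, a change of -0.59 ± 0.11 (limma adjusted p = 0.000109). The libraries of the 2 times did not overlap in either. Wall and cuticle genes were less uniform, with 15 and 14 of 17 falling in WT local and systemic leaves and 7 rising in each rbohD leaf. Of the 12 regulators, 11 and 10 fell in WT, whereas in rbohD local leaves 2 rose and 5 fell.

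The 3 largest falls in WT systemic leaves were those of AT3G62070, an uncharacterized protein, AT1G70820 and BGLU47, a beta-glucosidase. AT3G62070 went from 464, 401 and 382 at 4 min to 169, 134 and 160.04 at 8 min (-1.43 ± 0.11, limma adjusted p = 1.1e-09). AT1G70820 went from 824, 799.9 and 832 to 312, 313 and 303 (-1.40 ± 0.07, limma adjusted p = 4.63e-13), and BGLU47 from 151, 141 and 164 to 66.2, 62.4 and 50.0 (-1.35 ± 0.16, limma adjusted p = 4.4e-07). Each of them had been above its 0 min level at 4 min, by 1.11, 0.74 and 0.82. In rbohD systemic leaves the largest falls were small: -0.41 ± 0.15 for BGLU47 (limma adjusted p = 0.0443), -0.19 ± 0.06 for EXPB3 (limma adjusted p = 0.0106) and -0.19 ± 0.04 for LOX2 (limma adjusted p = 7.07e-05), and the first did not pass with DESeq2 (adjusted p = 0.128), without a filter on low values (0.0803) or without 5 single libraries (0 min replicate 2, 4 min replicates 1, 2 and 3, 8 min replicate 2, adjusted p between 0.0503 and 0.286). EXPB3 did not pass without the first 8 min library (adjusted p = 0.0552). The largest rises there were those of AT1G75900, a GDSL-type lipase gene, from 146, 144 and 146 to 246, 252 and 236 (0.75 ± 0.10, limma adjusted p = 7.87e-08), of AT5G02515, a non-coding RNA that overlaps a gene on the other strand (0.61 ± 0.18, limma adjusted p = 0.0126, not passed with DESeq2, adjusted p = 0.126, without a filter on low values, limma adjusted p = 0.0651, or without the second 4 min or the second 8 min library, adjusted p = 0.209 and 0.0523) and of AT5G27120 (0.53 ± 0.05, limma adjusted p = 4.64e-11).

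The change from 4 to 8 min differed between genotypes for nearly all of these genes. It was lower in WT than in rbohD for 246 of 258 in local leaves and 248 in systemic leaves, and higher for none in either (limma, difference of the changes, adjusted p under 0.05; background 20.8% lower and 19.7% higher of 17473 genes, 20.1% and 20.5% of 17545). The median difference was -0.84 and -0.80, against -0.01 and -0.000176 over all genes tested. At an unadjusted p under 0.05 the counts of higher genes were 0 and 0, and edgeR and DESeq2 gave 0 in both leaves. With every library rescaled to one total the split over all genes went from 3443 higher and 3638 lower to 4804 and 2483 in local leaves and from 3590 and 3518 to 4422 and 2652 in systemic leaves, and the median difference of the 258 was then -0.73 and -0.73. AT5G09840, a putative endonuclease, had the lowest difference in local leaves: it went from 97.5, 81.6 and 78.2 to 28.1, 37.9 and 34.9 in WT and from 64.0, 68.1 and 50.4 to 91.8, 81.2 and 82.2 in rbohD, a difference of -1.82 ± 0.24 (limma adjusted p = 1.29e-07). OFP16 was next (-1.66 ± 0.17, limma adjusted p = 8.93e-10). In systemic leaves AT3G62070 (-1.69 ± 0.14, limma adjusted p = 1.57e-12) and AT1G75900 (-1.61 ± 0.17, limma adjusted p = 7.27e-10) came first. PIF4 differed by -0.75 ± 0.06 (limma adjusted p = 1.75e-12) and -0.87 ± 0.07 (limma adjusted p = 6.54e-13).

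For most early-lowered genes the difference between the lit and the unlit leaf in the change from 4 to 8 min did not pass the test. In WT the change was higher in the local leaf for 14 and lower for 13 of 258 (limma, adjusted p under 0.05; background 3.64% and 4.61% of 17836 genes), and in rbohD for 15 and 12 (4.22% and 1.25% of 17244 genes). Apart from the lower ones in rbohD these shares were near the background, and without the second 4 min library of WT local leaves 9 in place of 14 were higher in WT. For 8 genes the change was lower in the local leaf of both genotypes: OFP16, ATCTH, ETP1, AT5G61590, AT1G23390, AT2G20670, AT5G19190 and AT5G60680. For another 8 it was higher: Cpn60beta2, AR192, CPN60A, CR88, SCA3, XTH31, THI2.2 and AT1G73600. How many of all genes had the same call in both genotypes is not given here, so these joint counts are descriptions. With every library rescaled to one total the split over all genes went from 649 higher and 823 lower to 521 and 1057 in WT, and from 728 and 216 to 568 and 496 in rbohD, where the early-lowered genes then split 9 and 18.

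OFP16 had the lowest difference between leaves in WT. In WT local leaves it had 303, 247 and 252 normalized counts at 0 min, 35.7, 39.5 and 36.0 at 2 min, 261, 297 and 318 at 4 min and 41.0, 34.2 and 47.4 at 8 min. The systemic leaf had 283, 268 and 262, 58.7, 33.6 and 50.9, 405, 478 and 469 and 152, 187 and 207. In the lit leaf the 8 min libraries overlapped those at 2 min, and in the unlit leaf they lay between those at 2 and 0 min. The change from 4 to 8 min was -2.81 ± 0.13 in the local and -1.31 ± 0.15 in the systemic leaf, a difference of -1.50 ± 0.21 (limma adjusted p = 2.97e-06). In rbohD local leaves it went from 324, 292 and 361 to 124, 143 and 174 and in systemic leaves from 433, 402 and 392 to 429.7, 464 and 422, a difference of -1.26 ± 0.13 (limma adjusted p = 2.75e-10). AT5G61590 differed by -1.34 ± 0.17 in WT (limma adjusted p = 1.07e-06) and -1.30 ± 0.12 in rbohD (limma adjusted p = 2.19e-11): its WT local libraries went from 299, 292 and 342 to 60.2, 59.2 and 66.2 and its WT systemic libraries from 453, 437 and 425 to 232, 228 and 209. ATCTH and AT5G19190 showed the same order, with changes of -1.90 and -1.71 in WT local against -1.16 and -0.82 in WT systemic leaves.

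Cpn60beta2 and AR192 were the 2 early-lowered genes that rose from 4 to 8 min in WT local leaves, and both were among the largest rises in rbohD local leaves. Cpn60beta2 rose by 0.42 ± 0.04 in WT local leaves (limma adjusted p = 3.33e-08) and changed by -0.61 ± 0.05 in WT systemic leaves (limma adjusted p = 1.85e-09), a difference of 1.03 ± 0.07 (limma adjusted p = 3.73e-13). In rbohD local leaves it had 4686, 4749 and 4768 at 4 min and 9297, 9053 and 9252 at 8 min, and in systemic leaves 7463, 7536 and 7407 and 7745, 7917 and 7953, a difference of 0.88 ± 0.05 (limma adjusted p = 5.98e-19). AR192 had 432, 373 and 387 at 4 min and 526, 492 and 491 at 8 min in WT local leaves, and 424, 407 and 437 and 211, 221 and 236 in WT systemic leaves. Its leaves differed by 1.27 ± 0.13 in WT (limma adjusted p = 7.55e-09) and 0.82 ± 0.10 in rbohD (limma adjusted p = 2.02e-08). CPN60A and CR88 had changes of 0.02 and 0.04 in WT local leaves, where neither passed the test, and -0.45 and -0.55 in WT systemic leaves, where both fell. FKBP53, a nucleolar histone chaperone, and PUP1, a purine permease, were with AR192 and AT1G75900 the 4 members of highest mean change at 8 min, with -0.07, -0.41, 0.35 and 0.12 and 0.46, 0.29, 0.41 and -0.07 in the 4 tables.

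**Figure D4:**
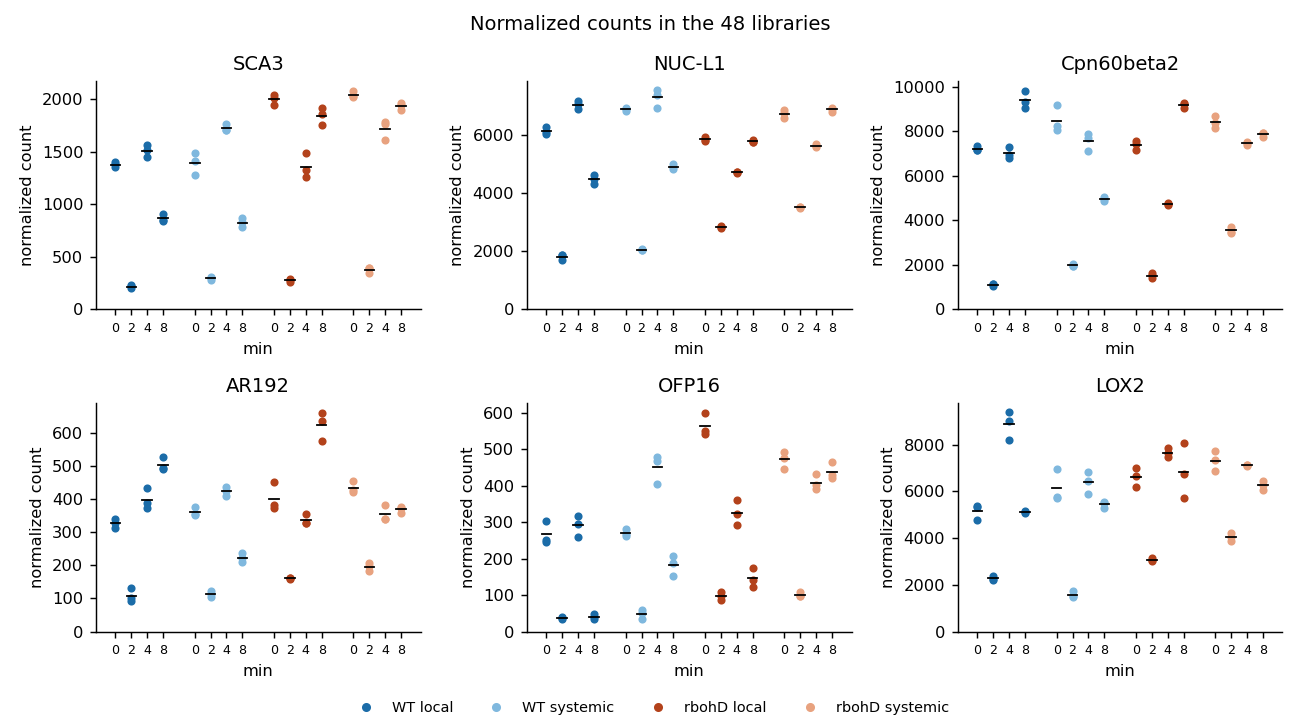
Normalized counts (vertical axis, from 0) of SCA3, NUC-L1, Cpn60beta2, AR192, OFP16 and LOX2 in the 48 libraries by minutes of excess light (horizontal axis) within each table. Each dot is a library and each bar the mean of 3. The 2 min dots are the lowest of each table, except that OFP16 in WT local leaves is about as low at 8 min, and Cpn60beta2 and AR192 are highest at 8 min in the local leaves of both genotypes.

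**Figure D5:**
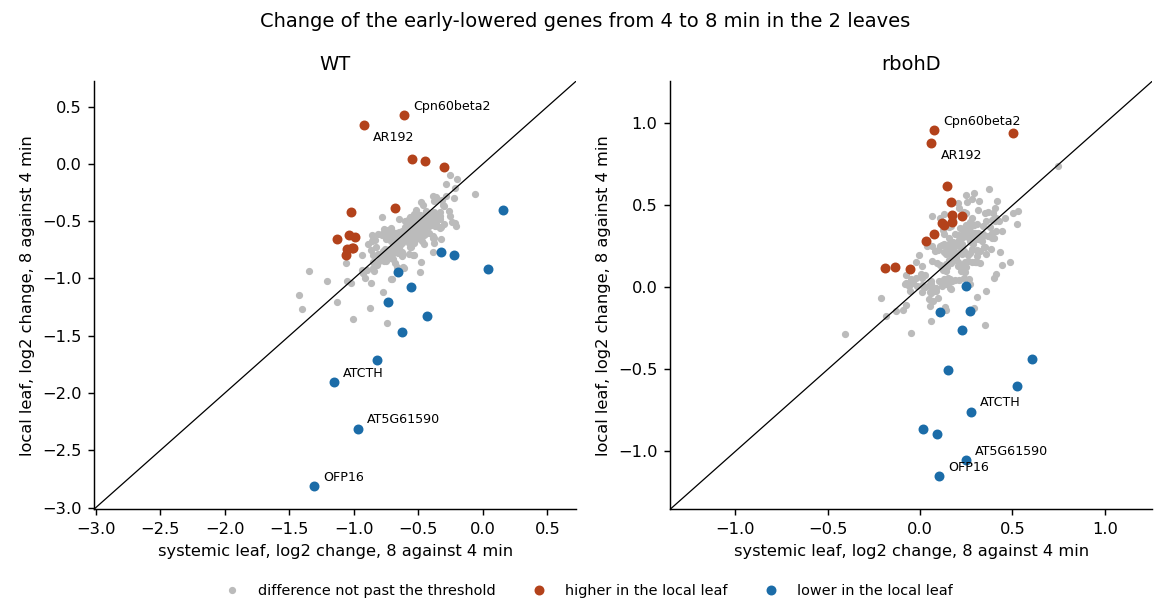
Log2 change from 4 to 8 min in the local leaf (vertical axis) against that in the systemic leaf (horizontal axis) for the 258 early-lowered genes, WT left and rbohD right. Each dot is a gene, the diagonal marks equal change and colours mark genes whose difference passed the test. Cpn60beta2 and AR192 lie above the diagonal and OFP16, AT5G61590 and ATCTH below it in both genotypes.

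Lists of gene families put the members in context. Of 35 lists, 19 held at least 1 member and 16 held none, among them auxin response (70 genes over the minimum mean), light-harvesting and photosystem genes (63), the circadian clock (25), aquaporins (27) and cell cycle genes (55), while 258 of 13766 genes is 1.87%. The list of ribosome biogenesis held 11 of 59 genes, and a wider one of nucleolar and rRNA-processing annotation, added after the values were seen, 21 of 71. Of the 59, 35 fell and 2 rose from 4 to 8 min in WT local leaves (median -0.25), and 0 fell and 33 rose in rbohD local leaves (median 0.22). Over all genes tested 19.9% fell and 19% rose in WT local leaves (median -0.01) and 13.4% fell and 14.8% rose in rbohD local leaves (median 0.00). Of the 48 genes of this list outside the 258, 24 fell and 2 rose in WT local and 0 fell and 23 rose in rbohD local leaves. Cytosolic ribosomal proteins held 3 of 241, and these carry family annotations only: AT4G12600 (L7Ae family), AT1G64880 (S5 family) and AT2G42710 (L1 family). Of the list's 238 other genes, 110 fell and 7 rose from 4 to 8 min in WT local leaves, and 163 rose and 2 fell in rbohD local leaves. Lists without a member could have this order too. Of the 63 light-harvesting and photosystem genes, 45 fell and 2 rose in WT local leaves, and 0 fell and 23 rose in rbohD local leaves. Of the 70 auxin response genes 35 fell and 12 rose in WT local leaves, but 20 fell and 3 rose in rbohD local leaves. Of the 25 clock genes 2 fell and 10 rose in WT local leaves. Plastid transcription and translation held 2 of 33, pentatricopeptide repeat proteins 8 of 138, embryo-defective genes 10 of 143 and starch and sugar 5 of 111. Among the embryo-defective genes EMB3129, a GTP-binding protein, and EMB3012 had 2 min changes of -1.07, -0.88, -2.16 and -1.78 and -1.02, -0.88, -2.13 and -2.17, and emb1703, which has stretches of at least 98% identity with 2 other annotated genes, of -1.37, -0.96, -1.80 and -1.62. The other named members of these lists, AT1G77030 (a DEAD-box helicase), RH39, AT1G28610 (a GDSL-type lipase gene), AT4G17810 and AT1G48570 (zinc finger genes), had changes between -2.57 and -0.82 at 2 min.

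Gene structure was compared with the 13742 genes over the minimum mean that were found in the annotation. The median transcript length was 1949.5 bases against 1836, the median GC content 41.7% against 41.4% and the median exon number 6 against 5, and 15.1% against 10.6% had a single exon. They were spread over the 5 chromosomes, 63, 42, 55, 47 and 51 of them from 1 to 5. All but MIR850, a miRNA precursor gene, and AT5G02515 are annotated as protein-coding. Of the 258, 19 lay within 10 kb of another, including 3 neighbouring Rossmann-fold genes, AT2G29290, AT2G29300 and AT2G29310, and PYRD and FSD3, which are 39 bases apart. In all, 79 overlap another annotated gene.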

How the data were processed

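RNA was sequenced from 48 Arabidopsis leaf libraries, 3 for each genotype, leaf and time, deposited as 4 tables of 12 libraries and 32833 genes. Per the study's methods and the labels, the authors checked reads with FastQC 0.11.7 and aligned them with STAR 2.4.0.1 to TAIR10. The authors' deposited values are a signal, gene counts divided by DESeq2 1.20.0 size factors, each table on its own. The counting tool and strand setting are not given in the sources used here, and mapping to several places was allowed, so overlapping genes and near-identical copies are uncertain. In every column 100% of values were whole reads within 0.05 of a step, with read totals of 13412657 to 28675623.

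The early-lowered genes, the gene lists and the annotated groups were chosen with earlier results of these data known. Changes at 2 min chose the genes and were not tested, nor were changes at 4 or 8 min from 0 min, which share the same 0 min libraries. The change from 4 to 8 min was tested within each table, and its difference between genotypes or leaves in a joint fit of 24 libraries, with limma 3.58.1 (R 4.3.3, mean-variance trend, two-sided) on log2(normalized count + 1) for genes that reached 10 normalized counts in 3 or more libraries of each table, with Benjamini-Hochberg adjustment over all genes and a threshold of 0.05. Fold changes on this scale understate those of low genes. The methods state 3 biological repeats, each a pool of plants, so p-values measure the spread between pools. Local and systemic leaves were taken from the same plants, so same-numbered leaves were treated as pairs in the replicate block: their deviations from the group means had a median correlation of 0.093 in WT and 0.0288 in rbohD, against -0.0408 and -0.0105 for other numbers. Simulated counts were run for the test in WT local leaves and for the genotype difference in local leaves, both without the replicate block. The other comparisons were not simulated.

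Alternatives were edgeR 4.0.16 and DESeq2 1.42.0 on the recovered reads, a pseudocount of 5, no filter, one common total per library, a GC correction, a replicate block, only the groups compared, other limits in the rule, and each library left out in turn. On the recovered reads edgeR called 7156, 7509, 5159 and 4432 genes from 4 to 8 min in WT local, WT systemic, rbohD local and rbohD systemic leaves, DESeq2 5828, 6256, 3890 and 3100, and limma on the normalized counts 7023, 7259, 4930 and 4114.

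Annotation and promoters came from RefSeq on TAIR10.1, in which 32548 gene IDs (99.13%) were found. One promoter sequence is not reported here. Genes named are the 12 with the lowest mean change at 2 min, the 8 with the highest counts, the 3 largest rises and falls from 4 to 8 min per table and the 2 largest differences per joint fit (with libraries that did not overlap in the former), up to 4 per gene list by count, 3 on either side of the limit, and the 4 lowest and 4 highest at 8 min. Genes named only for their place in an annotated group, such as PDE312, MRL7-L, LON1, HSP60-2, AT1G30680, ATWHY2, POLGAMMA1, AOC2, KAT5, OPR2, LSF2, OMR1, BCAT3 and dNK, and those given for shared calls or as neighbours were chosen after their values were seen.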

Additional observations from a re-analysis of the deposited data

Results flagged for a closer look

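The changes from 4 to 8 min of the early-lowered genes differed between genotypes or leaves by a test of the difference itself (limma, adjusted p under 0.05, 3 libraries per group). Between genotypes the change was lower in WT for 246 of the 258 genes in local and 248 in systemic leaves, against 20.8% and 20.1% of all genes tested. AT5G09840 and OFP16 differed by -1.82 and -1.66 in local leaves, and AT3G62070 and AT1G75900 by -1.69 and -1.61 in systemic leaves. Genotype and experiment cannot be told apart in these differences.

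Between leaves the change was higher in the local leaf for 14 and lower for 13 genes in WT, and for 15 and 12 in rbohD. Of all genes tested 3.64% were higher and 4.61% lower in WT, and 4.22% and 1.25% in rbohD. Apart from the lower ones in rbohD, the shares of the early-lowered genes were near this background. In WT the difference was -1.50 for OFP16, -1.34 for AT5G61590, 1.27 for AR192 and 1.03 for Cpn60beta2. In rbohD it was -1.30 for AT5G61590, -1.26 for OFP16, 0.88 for Cpn60beta2 and 0.82 for AR192.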

How the results depend on the processing

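Of 366 alternative values for the number of early-lowered genes and their counts of calls, 361 stayed within 1.5 times the reported count. Counts of 0 that stayed 0 are among these. Of 672 values for single named genes 660 kept their call and 12 lost it (BGLU47, EXPB3 and AT5G02515 in rbohD systemic leaves). A limit of -1 in place of -0.8 left 136 genes, the rescaling to one total gave 20 falls from 4 to 8 min in rbohD local leaves and 9 genes with a higher change in the local leaf of rbohD, and the causes were not tested beyond the settings' own construction. With one library left out, the number of early-lowered genes was 247 to 263, of falls and rises from 4 to 8 min 238 to 246 and 2 to 2 in WT local, 229 to 243 and 0 to 1 in WT systemic, 9 to 12 and 111 to 135 in rbohD local and 3 to 5 and 113 to 149 in rbohD systemic leaves, of lower changes in WT than in rbohD 244 to 247 in local and 241 to 246 in systemic leaves, and of higher and lower changes in the local leaf 9 to 14 and 9 to 12 in WT and 11 to 15 and 9 to 12 in rbohD. In the comparisons between genotypes or leaves the libraries left out were those of 4 and 8 min.

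With the replicate block, which in the comparisons of leaves is the pool of plants, 17 and 14 in place of 14 and 13 changes were higher and lower in the local leaf of WT and 15 and 12 in that of rbohD, and no call of a named gene changed. Time points of a table share a number only, with median correlations of same-numbered deviations between 0.000183 and 0.0498, and there the block gave 247 and 240 falls in WT local and systemic and 127 and 142 rises in rbohD local and systemic leaves. Counting error is largest for the genes near the minimum mean of 50 normalized counts.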

Other observations

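The early-lowered genes also differed between the lit and the unlit leaf at 2 min, which is a description because those values chose the genes. The change was lower in the local leaf for 184 of 258 genes in WT and for 198 in rbohD. The share of all genes with this order is not given here. More genes over the minimum mean were at -0.8 or lower in local than in systemic leaves, 8.38% against 6.66% in WT and 10.3% against 7.43% in rbohD. AT1G67750, the pectate lyase gene, had changes of -2.64 in local and -1.98 in systemic leaves of WT, and -2.38 and -0.96 in rbohD. EXPB3 had -2.31 and -0.88 in rbohD. LOX2 had the other order in WT, with -1.18 in local and -1.96 in systemic leaves.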
